A study of Mus musculus with 11 samples.

Results

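The CXC chemokine ligands are small secreted proteins that attract leukocytes. They were followed here through 10 genes, Cxcl1, Cxcl2, Cxcl3, Cxcl5, Cxcl9, Cxcl10, Cxcl11, Cxcl12, Cxcl13 and Cxcl14, which were taken by their symbols from the 45777 genes of the count table. Other CXC ligands served as a comparison. A chemokine binds a seven-helix receptor on the leukocyte, and the family is divided by the receptor that each ligand engages. Among these 10, the ligands with a Glu-Leu-Arg (ELR) motif are Cxcl1, Cxcl2, Cxcl3 and Cxcl5, which act through Cxcr2 and attract neutrophils. Cxcl9, Cxcl10 and Cxcl11 are induced by interferons and act through Cxcr3 on T and NK cells. Cxcl12 acts through Cxcr4, Cxcl13 through Cxcr5 on B cells, and Cxcl14 is expressed by epithelia at rest. In skin, keratinocytes release ELR-positive ligands when exposed to IL-17 or IL-1 family cytokines.

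Skin and small intestine of BALB/c mice were analyzed by RNA sequencing of bulk tissue. Mice were treated from 8 to 10 weeks of age with 62.5 mg of cream per day, either vehicle (Vaseline, the control) or Aldara with 5% imiquimod (IMQ), a TLR7 ligand that causes psoriasis-like dermatitis on mouse skin. All mice were shaved, and the sample annotation gives 5 to 8 days of treatment on the back and the right ear, whereas the methods name only the back and a shorter upper limit. There were 3 control and 3 IMQ libraries of skin (replicates 1 to 3 and 4 to 6), while small intestine was represented by 3 control libraries (replicates 7 to 9) and 2 IMQ libraries (replicates 10 and 11). The sources do not state which tissues came from one mouse or that each library came from a separate mouse, so p-values measure the spread between these libraries. In bulk tissue, fewer cells of a type and less RNA per cell cannot be told apart. The control cream was Vaseline, so effects of imiquimod and of the other ingredients of Aldara cannot be told apart either, and IMQ below stands for the whole cream.

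The libraries held 44995414 to 58526384 counts. Skin control replicate 2 stood apart from the other skin controls. Its summed level of 6 hair follicle keratin and trichohyalin genes was 5.30 CPM (counts scaled to a common library total), compared with 1347 and 2153 CPM in the other skin controls and 6.25 to 10.3 CPM in IMQ skin. Pigment cell genes were also lowest among the controls in that library, with 84.9 CPM, compared with 361 and 716 CPM in the other controls and 38.3 to 76.2 CPM in IMQ skin. The same library held enterocyte transcripts, at 223 CPM for 6 genes compared with at most 5.89 CPM in the other skin libraries. These corresponded to a median of 0.896% of the level in control small intestine, a share that would supply 20.1 of its 7954 counts of Cxcl12, 8.28 of its 3552 counts of Cxcl14, 5.12 of its 410 counts of Cxcl9, 1.1 of its 51 counts of Cxcl11 and 0.33 of its 2 counts of Cxcl5. Keratinocyte genes summed to 12080 to 32470 CPM in skin and at most 3.76 CPM in small intestine, and enterocyte genes to 15860 to 21550 CPM in small intestine, so both labelled tissues held their defining markers.

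Of the 10 ligands, 8 lie on chromosome 5 (GRCm38). Cxcl5 (chr5:90759298-90761625), Cxcl3 (chr5:90786101-90788093), Cxcl1 (chr5:90891245-90893121) and Cxcl2 (chr5:90903899-90905938) are transcribed from the plus strand within 146.6 kb. Cxcl9 (chr5:92321331-92328079), Cxcl10 (chr5:92346638-92348889) and Cxcl11 (chr5:92359544-92363296) are transcribed from the minus strand within 42.0 kb. Cxcl13 (chr5:95956939-95961068) lies apart on the plus strand, Cxcl12 is at chr6:117168535-117181368 (plus strand), and Cxcl14 is at chr13:56288643-56296811 (minus strand). Cxcl11 is annotated as a transcribed pseudogene in the reference genome. That annotation does not settle whether BALB/c mice make the protein, which was not tested, so its counts are given as RNA. Cxcl10 and Cxcl11 lie within the span of Art3, which is transcribed from the opposite strand and shares 133 exonic bases with Cxcl10. Cxcl11 shares 1582 exonic bases with the processed pseudogene Gm2673 on the opposite strand. The sources do not state whether the counting used strand, so reads in these shared bases cannot be assigned with certainty.

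The sequence before the transcription start is shown for the ligands whose levels differed most with IMQ in skin, together with that of Cxcl10, an interferon-induced ligand that did not pass the test. RefSeq entries were found for 8 of the 10 ligands and were read from 250 bases before the start up to the start. Cxcl5 and Cxcl11 had no entry. The windows were searched on both strands for the NF-kappaB consensus, for an interferon-stimulated response element (ISRE, GAAANNGAAA), for a gamma-activated sequence (GAS, TTCNNNGAA) and for TATAAA, motifs that were chosen after the sequences had been seen. Capitals mark every match. The windows are chr5:90890995-90891244 for Cxcl1, chr5:90903649-90903898 for Cxcl2, chr5:90785851-90786100 for Cxcl3 and chr5:95956689-95956938 for Cxcl13, all on the plus strand, and chr5:92348890-92349139 on the minus strand for Cxcl10.
Cxcl1: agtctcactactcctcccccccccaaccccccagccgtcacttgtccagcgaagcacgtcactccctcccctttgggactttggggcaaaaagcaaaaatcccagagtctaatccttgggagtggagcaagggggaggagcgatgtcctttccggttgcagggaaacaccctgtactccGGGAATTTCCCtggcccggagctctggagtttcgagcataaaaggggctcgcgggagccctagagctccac
Cxcl2: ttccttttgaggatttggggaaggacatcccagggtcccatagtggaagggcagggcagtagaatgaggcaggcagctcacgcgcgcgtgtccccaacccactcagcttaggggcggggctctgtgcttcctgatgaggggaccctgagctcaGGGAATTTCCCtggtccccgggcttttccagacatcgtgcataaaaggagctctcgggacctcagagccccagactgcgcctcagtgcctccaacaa
Cxcl3: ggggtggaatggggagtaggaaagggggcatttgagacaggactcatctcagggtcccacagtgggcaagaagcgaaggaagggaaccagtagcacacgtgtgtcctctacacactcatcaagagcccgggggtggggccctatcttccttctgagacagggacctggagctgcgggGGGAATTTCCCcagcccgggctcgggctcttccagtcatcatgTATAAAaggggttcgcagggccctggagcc
Cxcl13: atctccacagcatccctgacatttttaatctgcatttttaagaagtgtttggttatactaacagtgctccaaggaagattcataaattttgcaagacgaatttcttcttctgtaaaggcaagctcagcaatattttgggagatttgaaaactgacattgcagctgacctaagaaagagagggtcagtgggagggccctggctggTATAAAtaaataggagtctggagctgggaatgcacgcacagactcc
Cxcl10: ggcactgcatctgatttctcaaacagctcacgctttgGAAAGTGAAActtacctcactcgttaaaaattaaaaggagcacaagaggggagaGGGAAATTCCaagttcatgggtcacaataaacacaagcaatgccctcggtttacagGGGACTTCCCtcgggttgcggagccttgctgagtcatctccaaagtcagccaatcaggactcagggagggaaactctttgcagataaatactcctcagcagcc

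Cxcl1, Cxcl2 and Cxcl3 each held the stretch GGGAATTTCCC, 11 bases that read as the NF-kappaB consensus on both strands with an overlap of all but 1 base at each end. It lay 71 to 61 bases before the start of Cxcl1, 97 to 87 before Cxcl2 and 73 to 63 before Cxcl3. This exact stretch was present in 14 of 32851 promoter windows of the same length (0.0426%), and the NF-kappaB consensus in 3.9%. The stretch was taken from these promoters themselves and their windows are among the 14, so this share is no test of enrichment. Cxcl10 held 2 separate NF-kappaB matches, 159 to 150 and 103 to 94 bases before the start, and an ISRE match 213 to 204 bases before it. An ISRE match was present in 2.98% of all windows, a GAS match in 7.02% and TATAAA in 12.4%. TATAAA was found 46 to 41 bases before the start of Cxcl13 and 30 to 25 before that of Cxcl3. Of the promoters not printed, Cxcl9 held TATAAA, Cxcl14 held 1 ISRE and 1 GAS match, and Cxcl12 held none of these letters. A match is a description of the sequence and does not show that a factor bound there.

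Levels of different ligands were compared as FPKM, which the authors scaled by gene length and library size. In control skin, Cxcl12 led with 82.2 ± 36.0 FPKM (SD, n = 3), followed by Cxcl14 with 43.5 ± 12.5 FPKM, and the ranges of these neighbours did not overlap. Cxcl13 (3.28 ± 0.46 FPKM), Cxcl10 (2.75 ± 0.98 FPKM) and Cxcl9 (2.11 ± 0.55 FPKM) came next with overlapping neighbours. All 4 ELR-positive ligands and Cxcl11 were below 1 FPKM in each control skin library. In IMQ skin, Cxcl13 reached 91.9, 105.8 and 331.9 FPKM and overlapped Cxcl12 at 98.5, 84.4 and 189.4 FPKM. Cxcl14 (16.5 ± 6.58 FPKM) and Cxcl1 (13.3 ± 0.56 FPKM) followed, and their ranges overlapped. In control small intestine, Cxcl12 (16.3 ± 2.44 FPKM) was followed by Cxcl14 (9.65 ± 3.88 FPKM) and Cxcl9 (3.84 ± 2.53 FPKM). In IMQ small intestine, Cxcl14 at 21.7 and 20.2 FPKM stood above Cxcl12 at 13.9 and 11.3 FPKM, the reverse of their order in control small intestine.

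**Figure D1:**
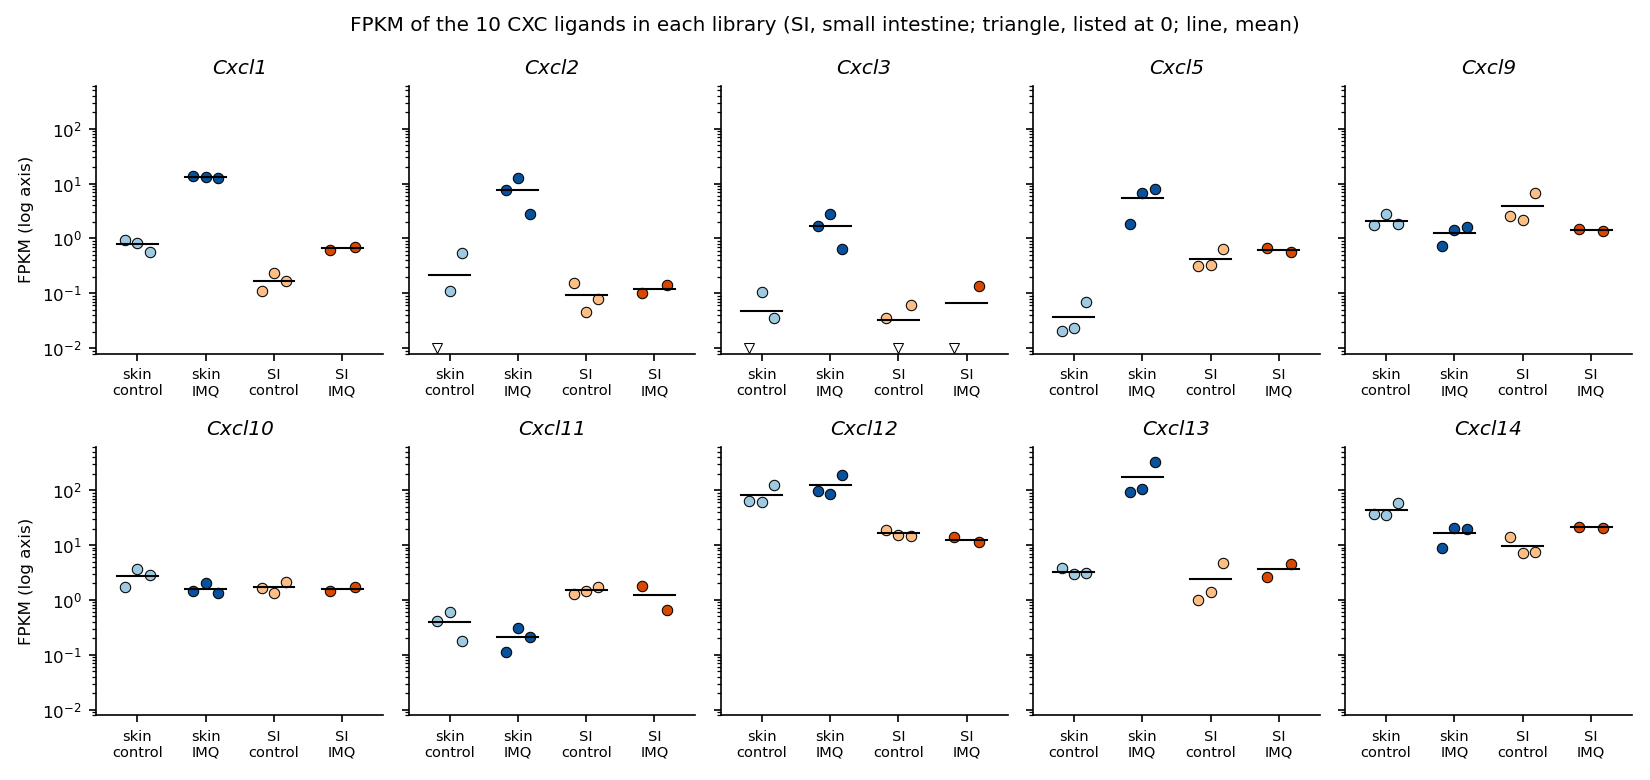
FPKM of each of the 10 CXC ligands (log axis) in the 11 libraries by tissue and treatment; points are libraries, horizontal lines are group means, and open triangles at the lower edge are libraries listed at 0. Cxcl13 lies at 2.94 to 3.79 FPKM in control skin and at 91.9 to 331.9 FPKM in IMQ skin, whereas Cxcl12 overlaps between those groups.

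The shares of the ligands in their summed RNA also differed between control and IMQ skin. Cxcl13 made up 1.62% to 3.48% of the summed FPKM of the 10 ligands in control skin and 40.5% to 58.4% in IMQ skin. Cxcl14 made up 30.3% to 34.4% in control skin and 3.51% to 8.26% in IMQ skin. The summed FPKM was 109, 106 and 191 in control skin and 227, 250 and 568 in IMQ skin. In small intestine it was 40.3, 29.4 and 38.5 in controls and 44.3 and 41.3 with IMQ. There, Cxcl14 made up 19.8% to 35.0% in controls and 48.9% and 49.0% with IMQ.

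**Figure D2:**
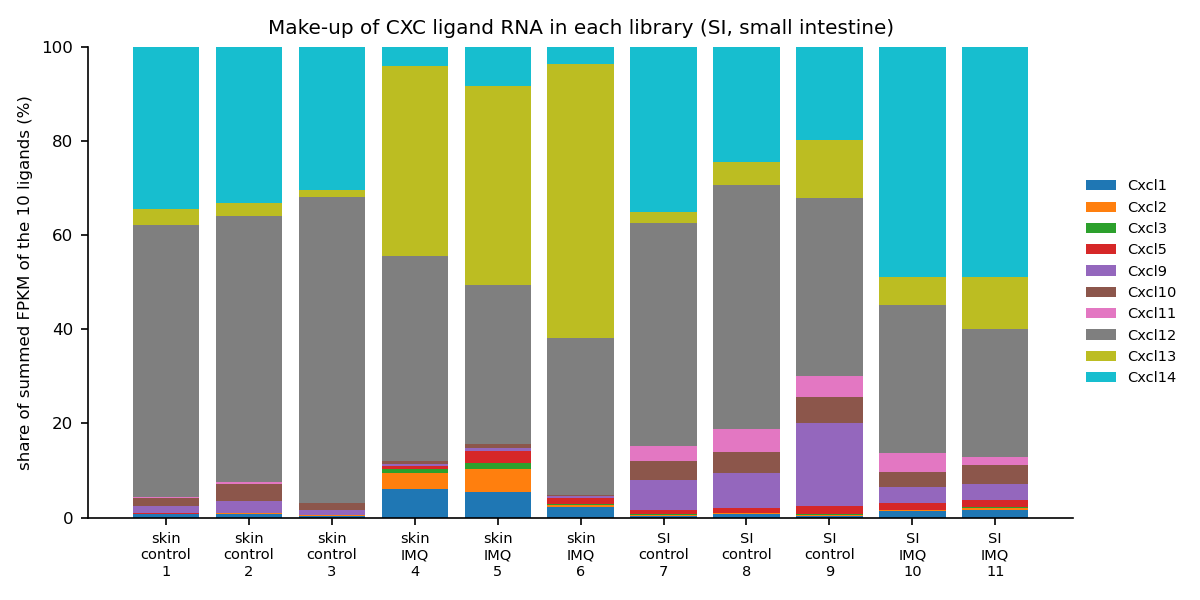
Share of each ligand in the summed FPKM of the 10 CXC ligands (percent) in each library; bars are libraries, labelled by group and replicate number. Cxcl13 takes at least 40.5% in every IMQ skin library and at most 3.48% in the control skin libraries.

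To assess how each ligand responded to IMQ, counts were compared in each tissue with edgeR's quasi-likelihood test, and a gene with a Benjamini-Hochberg adjusted p under 0.05 over all genes tested was called. Genes for which any library of that tissue had a zero count were left out. The study applied such a rule without naming a tissue, and its use within each tissue is a choice made here. In skin, 8 of the 10 ligands met this condition. Of these 8, Cxcl1, Cxcl5 and Cxcl13 were higher in IMQ skin, against 4.05% of all 20512 genes tested, and Cxcl14 was lower, against 2.69%. The median log2 fold change of the 8 ligands was -0.13, and that of all genes was -0.014. Cxcl2 and Cxcl3 had a control library with 0 counts and were fitted without the filter, where Cxcl3 was called. In that fit, 4 of the 10 ligands were called higher, against 2.39% of 29186 genes.

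**Figure D3:**
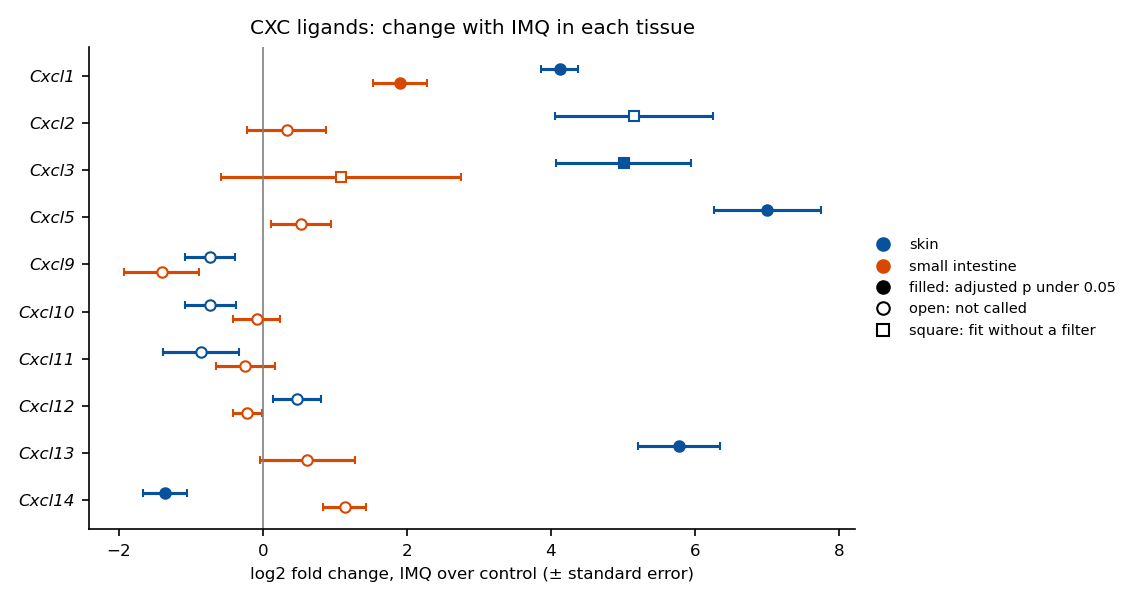
Log2 fold change of IMQ over control for each ligand in skin (blue) and small intestine (orange); bars are standard errors, filled symbols passed an adjusted p of 0.05, and squares come from the fit without a filter. Cxcl1, Cxcl5 and Cxcl13 lie at 4.13, 7.01 and 5.78 in skin, and the interferon-induced ligands lie below 0 in both tissues without passing the test.

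All 4 ELR-positive ligands followed here had higher counts in every IMQ skin library than in every control skin library. Cxcl1, a main neutrophil attractant of mouse skin, had 53, 41 and 32 counts in control skin and 689, 686 and 611 in IMQ skin. The IMQ libraries were closely alike, with a highest normalized count 1.16 times the lowest, and Cxcl1 was 17.5-fold higher (log2 fold change 4.13, SE 0.26, edgeR adjusted p = 0.00129). It was called in each of the 6 fits that left out 1 library. Cxcl5, which is made mainly by epithelial cells, had 3, 2 and 7 counts in control skin and 158, 606 and 664 in IMQ skin. Its lowest IMQ library, replicate 4, was still above every control, and the log2 fold change was 7.01 (SE 0.74, edgeR adjusted p = 0.00499). The size of this change depends on a control group of few reads, and on log2(FPKM + 1) the log2 fold change was 2.49 and not called (limma adjusted p = 0.0506). Cxcl2, a ligand also made by activated myeloid cells, had 0, 7 and 35 counts in control skin and 437, 732 and 152 in IMQ skin. Its log2 fold change was 5.15 (SE 1.1) and was not called (edgeR without a filter, adjusted p = 0.0541). It was called with the filterByExpr filter (adjusted p = 0.0402) and by DESeq2 without a filter (0.008), and not by limma-voom (0.0837). FilterByExpr keeps a gene with enough counts in as many libraries as the smaller group holds, which control skin alone did not provide for Cxcl2. That call thus rests on a filter passed through the group in which Cxcl2 was high, and is no separate support. Over the fits that left out 1 library the log2 fold change ran from 4.56, without control replicate 1, to 6.97, without control replicate 3, the highest control and the one fit of these with a call (edgeR adjusted p = 0.0385). Cxcl3 had 0, 6 and 3 counts in control skin and 92, 153 and 34 in IMQ skin, and was called with a log2 fold change of 5.01 (SE 0.93, edgeR without a filter, adjusted p = 0.0357). The call was lost without control replicate 1 or 3 and without IMQ replicate 4 or 5 (adjusted p of 0.0842 to 0.146), and the log2 fold change was 6.08 without control replicate 2 and 4.41 without control replicate 1.

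Cxcl2 and Cxcl3 moved in the same order across IMQ skin, highest in replicate 5 and lowest in replicate 6. The ratio of Cxcl2 to Cxcl3 counts was 4.75, 4.78 and 4.47 in IMQ skin replicates 4, 5 and 6. It was 1.17 in skin control replicate 2, 1.5 in small intestine control replicate 9 and 1.12 in small intestine IMQ replicate 11, at 4 to 9 counts of each gene. Skin control replicate 3 had 35 counts of Cxcl2 and 3 of Cxcl3, so the ratio was not constant outside IMQ skin. The longest transcripts of Cxcl2 and Cxcl3 share an identical run of 157 bases, which is longer than a sequenced read of 100 bases. No other of the 45 pairs of ligands shared a run that long. The sources do not state how reads that match both genes were counted, and the part of shared reads in these counts was not tested. Cxcl5 and Cxcl13 had another order, lowest in replicate 4 and highest in replicate 6.
 
The change was uneven along the chromosome. Ppbp, Pf4 and Cxcl15, which encode further CXC ligands, lie between Cxcl5 and Cxcl1. Pf4, the platelet factor that is also expressed by macrophages, had 1151, 646 and 838 counts in control skin and 756, 1139 and 1545 in IMQ skin, with overlapping groups (log2 fold change 0.55, SE 0.28, edgeR adjusted p = 0.289). Ppbp had 0, 10 and 0 counts in control skin and 8, 8 and 3 in IMQ skin, and Cxcl15 had none in any skin library. Pf4 starts 13.1 kb and Cxcl3 26.8 kb from the start of Cxcl5. Ppbp and Cxcl15 also carry the ELR motif, whereas Pf4 lacks it. Cxcl1, Cxcl2, Cxcl3 and Cxcl5 had log2 fold changes from 4.13 to 7.01.

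**Figure D4:**
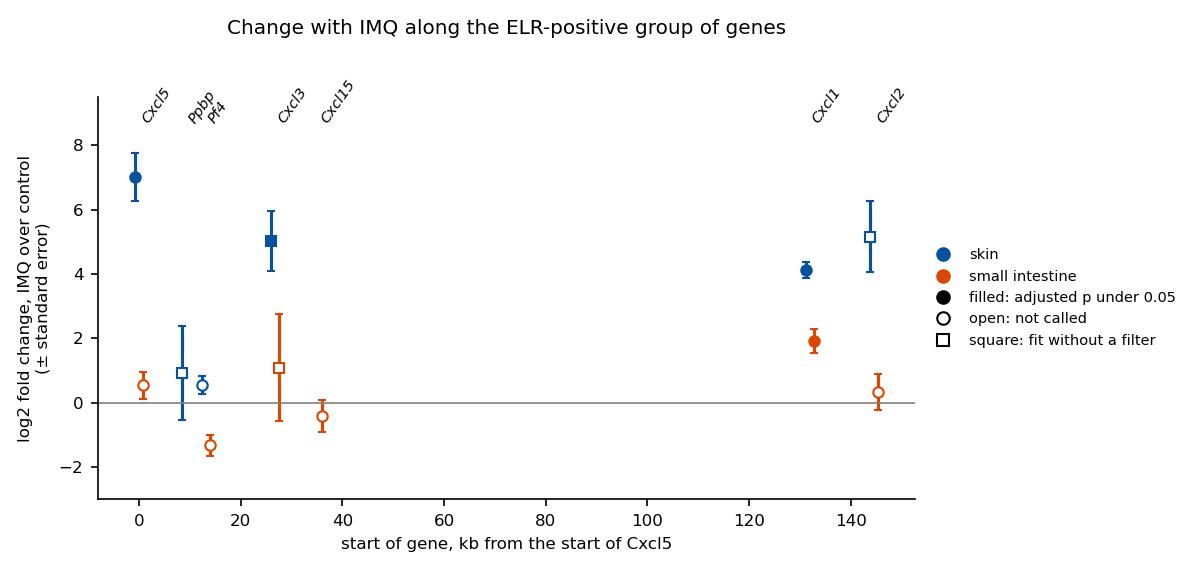
Log2 fold change of IMQ over control (bars, standard error) for the 7 genes of the ELR-positive group by the distance of each start from that of Cxcl5 (kb), in skin (blue) and small intestine (orange). In skin, Pf4 at 0.55 lies between Cxcl5 at 7.01 and Cxcl3 at 5.01; no point is drawn where every library of a group was at 0.

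None of the 3 interferon-induced ligands was called in skin by edgeR or DESeq2. At an unadjusted p under 0.05 there were 0 by edgeR and 2 by DESeq2. Cxcl9 had 291, 410 and 320 counts in control skin and 109, 220 and 235 in IMQ skin. Every IMQ library was below every control library, but the difference did not pass the test (log2 fold change -0.73, SE 0.35, edgeR adjusted p = 0.268). Cxcl10 had 111, 210 and 184 counts in control skin and 86, 119 and 74 in IMQ skin, with overlapping groups (log2 fold change -0.73, SE 0.35, edgeR adjusted p = 0.276). Cxcl11 RNA had 39, 51 and 18 counts in control skin and 10, 27 and 18 in IMQ skin, also with overlap (log2 fold change -0.86, SE 0.53, edgeR adjusted p = 0.385). Art3, the gene on the strand opposite to Cxcl10 and Cxcl11, had a log2 fold change of -0.22 in skin (SE 0.24, edgeR adjusted p = 0.635). Of 11 genes of interferon signaling, 9 were tested in skin and Ifnar2, a subunit of the type I interferon receptor, was called higher (log2 fold change 0.57, SE 0.12, edgeR adjusted p = 0.0412), a call lost in 5 of the 6 fits that left out 1 library. The median log2 fold change of the 9 was 0.15. Ifng, which encodes interferon gamma, had 4 to 17 counts in control skin and 0 to 10 in IMQ skin. EdgeR called 0 of 9 of these genes in small intestine, with 1 at an unadjusted p under 0.05 and 1 called by DESeq2.

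The homeostatic ligands took different directions. Cxcl13, the attractant of B cells into follicles, had 255, 176 and 214 counts in control skin and 5583, 6579 and 19461 in IMQ skin. The controls were close together, whereas IMQ replicate 6 stood above the others, with a highest normalized count 3.38 times the lowest. Cxcl13 was 54.95-fold higher (log2 fold change 5.78, SE 0.57, edgeR adjusted p = 0.00432), and without IMQ replicate 6 the log2 fold change was 4.99, still called. Cxcl14 had 4147, 3552 and 6407 counts in control skin and 922, 2097 and 1876 in IMQ skin. It was lower in every IMQ library (log2 fold change -1.36, SE 0.31, edgeR adjusted p = 0.0486). This call sits at the threshold and was lost in each of the 6 fits that left out 1 library, with adjusted p of 0.0513 to 0.113 and log2 fold changes of -1.55 to -1.08. The level of Cxcl14 in control replicate 2, whose hair follicle genes were below the IMQ skin libraries and whose pigment genes were lowest among the controls, was 35.1 FPKM, compared with 37.4 and 57.9 FPKM in the other controls. Cxcl12, which retains Cxcr4-bearing leukocytes, had 8784, 7954 and 16168 counts in control skin and 10904, 9616 and 19563 in IMQ skin. The groups overlapped, and the difference did not pass the test (log2 fold change 0.47, SE 0.34, edgeR adjusted p = 0.456).

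By normalized counts, 5 of the 10 ligands (Cxcl1, Cxcl2, Cxcl3, Cxcl5 and Cxcl13) were higher in every IMQ skin library than in every control. Of these, Cxcl1, Cxcl5 and Cxcl13 passed the filter, against 15.1% of all genes tested with it. Cxcl2 and Cxcl3 did not pass the filter and are outside that share. Cxcl9 and Cxcl14 were lower in every IMQ library, against 13.3% of all genes tested, and the other 3 ligands overlapped.

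Of the 10 ligands, 9 were tested in small intestine and Cxcl1 was called higher, against 2.77% of all 19965 genes. No ligand was called lower by edgeR, against 0.17% of all genes. At an unadjusted edgeR p under 0.05 there were 3 ligands, Cxcl1, Cxcl14 and Cxcl9. The share of all genes at that level was not computed. DESeq2 called 2 ligands, Cxcl1 and Cxcl14, while over all genes it called 1006 higher and 200 lower. Cxcl1 had 6, 13 and 11 counts in control and 38 and 37 in IMQ small intestine, and was 3.75-fold higher (log2 fold change 1.91, SE 0.37, edgeR adjusted p = 0.0437). It was higher in 2 of 2 IMQ libraries, and the call was lost in each of the 5 fits that left out 1 library, with adjusted p of 0.0768 to 0.206. The level remained low, at 0.657 ± 0.048 FPKM (SD, n = 2), and overlapped that of control skin, at 0.778 ± 0.20 FPKM (SD, n = 3). The libraries were at 0.623 and 0.691 FPKM in IMQ small intestine and at 0.556 to 0.945 FPKM in control skin.

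Cxcl14 had 1427, 712 and 949 counts in control small intestine and 2529 and 2077 with IMQ. Both IMQ libraries were above all controls, but the difference was not called (log2 fold change 1.14, SE 0.30, edgeR adjusted p = 0.127). Without control replicate 7, the highest control, the log2 fold change was 1.53 and Cxcl14 was called (adjusted p = 0.00238). Cxcl9 had 409, 342 and 1283 counts in control and 270 and 227 in IMQ small intestine. Control replicate 9 stood apart, and the log2 fold change of -1.41 (SE 0.52, edgeR adjusted p = 0.31) became -0.67 without it. By range, Cxcl1 and Cxcl14 were higher in all IMQ libraries, against 15.1% of all genes tested, and Cxcl9 was lower, against 13.9%.

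The other ligands overlapped between control and IMQ small intestine. Cxcl13 had 63, 89 and 359 counts in controls and 194 and 295 with IMQ (log2 fold change 0.62, SE 0.66, edgeR adjusted p = 0.809). Without control replicate 9, with which alone the groups overlapped, the log2 fold change was 1.66 and not called (adjusted p = 0.165). It was 0.10 without IMQ replicate 11. Its highest library was again control replicate 9, in which 8 B cell and follicle markers summed to 53.9 CPM, compared with 22.6 to 30.8 CPM in the other small intestine libraries. In that library Ms4a1 had 389 counts, compared with 15 to 58 elsewhere in the small intestine, and Cxcr5, the receptor of Cxcl13, had 109 counts, compared with 4 to 27. The part of these B cell genes in the level of Cxcl13 was not tested. Cxcl5 had 28, 30 and 71 counts in controls and 69 and 54 with IMQ (log2 fold change 0.54, SE 0.42). Cxcl2 had 3 to 10 counts and Cxcl3 0 to 8 counts in every small intestine library, so that a change could not be resolved at this depth. Cxcl10 ranged from 79 to 154 counts in controls and was 101 and 104 with IMQ, and Cxcl11 had 113, 127 and 181 counts in controls and 185 and 60 with IMQ. Cxcl12 had 2965, 2197 and 2337 counts in controls and 2566 and 1819 with IMQ (log2 fold change -0.22, SE 0.20).

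To test whether a ligand responded differently in the tissues, the change in skin was subtracted from that in small intestine in one model of all 11 libraries, which kept 8 of the ligands. Of these, 4 were called, against 2.55% of 18108 genes. The model gives each gene a common spread for both tissues, and it treats all libraries as independent although some may come from one mouse. The difference was -6.47 for Cxcl5 (SE 0.92, edgeR adjusted p = 0.00598), -5.16 for Cxcl13 (SE 0.97, adjusted p = 0.0214) and -2.21 for Cxcl1 (SE 0.44, adjusted p = 0.027) on the log2 scale, so that their log2 fold changes were smaller in small intestine than in skin. For Cxcl14 the difference was 2.49 (SE 0.48, edgeR adjusted p = 0.0241), with a lower level in IMQ skin and a higher level in both IMQ libraries of small intestine. Cxcl5 was called in each of the 11 fits that left out 1 library but not on log2(FPKM + 1), where the difference was -2.31 (limma adjusted p = 0.0704), and Cxcl14 was not called on log2(FPKM + 0.01) (0.0546). The call of Cxcl13 was lost without replicate 1, 10 or 11 (adjusted p of 0.0517 to 0.132), that of Cxcl14 without replicate 8, 9, 10 or 11 (0.0541 to 0.09) and that of Cxcl1 without replicate 4, 5, 8, 9, 10 or 11 (0.0629 to 0.12). The difference for Cxcl13 was -4.11 without small intestine control replicate 9 and -4.37 without skin IMQ replicate 6. Cxcl9, Cxcl10, Cxcl11 and Cxcl12 had differences of -0.69 to 0.65 that were not called.

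Most genes tested differed between the tissues before treatment, so a call in this contrast does not set a ligand apart. In a comparison of control skin with control small intestine, 6 of 8 ligands were called, against 57% of all genes tested. Cxcl12 (log2 difference 1.68, SE 0.30), Cxcl14 (1.73, SE 0.33) and Cxcl1 (1.66, SE 0.31) were higher in control skin. Cxcl5 (-3.78, SE 0.69), Cxcl11 (-2.31, SE 0.49) and Cxcl9 (-1.33, SE 0.45) were lower in control skin. The call of Cxcl9 was lost without small intestine control replicate 9, with a log2 difference of -0.59, and without skin control replicate 1 (-1.17) or 3 (-1.20). Cxcl10 (0.24, SE 0.34) and Cxcl13 (-0.03, SE 0.61) were not called. This contrast depends on the scaling between tissues, since the median log2 difference of all genes was 0.012 by relative log expression and 0.454 by FPKM with a pseudocount of 0.01, and the genes called higher and lower in skin numbered 5210 and 5111 by the former and 8234 and 3135 by the latter. The called ligands kept their direction under every alternative tried, with Cxcl5 not called by FPKM with a pseudocount of 1 and Cxcl9 called by neither FPKM scale.

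Receptors for these ligands were examined next. In skin, 6 of 8 receptors were tested and edgeR called 2, both higher, while DESeq2 called 3. Cxcr2, the receptor of the ELR-positive ligands, had 291, 413 and 131 counts in control skin and 1792, 2594 and 1482 in IMQ skin (log2 fold change 2.91, SE 0.49, edgeR adjusted p = 0.0211). Cxcr6, the receptor of Cxcl16, had 131, 266 and 132 counts in control skin and 765, 1242 and 2635 in IMQ skin (log2 fold change 3.23, SE 0.58, edgeR adjusted p = 0.0251). Both receptors were higher in 3 of 3 IMQ libraries, and the call was lost for Cxcr2 without replicate 1, 4 or 5 (adjusted p of 0.0622 to 0.0906) and for Cxcr6 without replicate 1, 3, 5 or 6 (0.0502 to 0.1). Without IMQ replicate 6 the log2 fold change of Cxcr6 was 2.61 (adjusted p = 0.0502). Cxcr1, another receptor of ELR-positive ligands, had 0 counts in all control skin libraries and 10, 12 and 21 in IMQ skin, at least 5.29-fold higher with a floor of 3 counts per control library. In the fit without a filter, edgeR called Cxcr1 (adjusted p = 0.0349). Cxcr3 (log2 fold change 0.55, SE 0.30), Cxcr4 (0.18, SE 0.23) and the scavenging receptors Ackr1 (1.51, SE 0.52) and Ackr3 (-0.12, SE 0.21) were not called in skin. Cxcr5 had 3, 0 and 3 counts in control skin and 13, 4 and 6 in IMQ skin, where its ligand Cxcl13 was 54.95-fold higher.

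Of 7 receptors tested in small intestine, 0 were called by edgeR, DESeq2 or limma, and none had an unadjusted edgeR p under 0.05. Cxcr2 had 11, 15 and 10 counts in control and 8 and 12 in IMQ small intestine. The difference between the tissues was called for Cxcr6 (-3.22, SE 0.70, edgeR adjusted p = 0.0397) and, without skin IMQ replicate 6, was -2.59 for this receptor. It was not called for Cxcr2 (-3.15, SE 0.86, adjusted p = 0.0904). Of the other CXC ligands, Cxcl16 was called higher in IMQ small intestine, with 1251, 1207 and 1607 counts in controls and 2279 and 2048 with IMQ (log2 fold change 0.68, SE 0.13, edgeR adjusted p = 0.0449). The call was lost in each of the 5 fits that left out 1 library. In skin, Cxcl16 had a log2 fold change of 0.87 (SE 0.32, edgeR adjusted p = 0.164), and Cxcl17 had 0 to 6 counts in every library.

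Cytokines that induce ELR-positive ligands were measured in the same libraries. In skin, 5 of 8 were tested, and Il1b and Il1f6 (IL-36 alpha) were called higher by edgeR. At an unadjusted edgeR p under 0.05 there were 4, and DESeq2 called 4. Il1f9 (log2 fold change 1.92, SE 0.535, edgeR adjusted p = 0.0846) and Tnf (1.03, SE 0.365, 0.153) were higher in every IMQ skin library without being called by edgeR. Il1b had 337, 409 and 297 counts in control skin and 1959, 3068 and 1803 in IMQ skin (log2 fold change 2.84, SE 0.28, edgeR adjusted p = 0.00432). Il1f6 had 596, 849 and 260 counts in control skin and 7605, 3916 and 2548 in IMQ skin (log2 fold change 3.15, SE 0.62, edgeR adjusted p = 0.0323), a call lost without replicate 1, 4 or 5 (adjusted p of 0.079 to 0.122). The IL-17 genes had 0 counts in all control skin libraries. Il17a had 80, 71 and 243 counts in IMQ skin (at least 48.6-fold higher), Il17f had 118, 111 and 554 (at least 96.6-fold) and Il17c had 59, 10 and 24 (at least 11.7-fold). In the fit without a filter, edgeR called Il17a (adjusted p = 0.0187) and Il17f (0.0291) but not Il17c (0.0505). Il17a and Il17f were highest in IMQ replicate 6, the library with the most Cxcl5 and Cxcl13 of the IMQ skin libraries. Cxcl1, Cxcl2 and Cxcl3 were lowest in that library, and Il17c was highest in IMQ replicate 4. A link between these levels was not tested. Il1b was also called higher in small intestine, with 312, 229 and 225 counts in controls and 1480 and 2954 with IMQ (log2 fold change 3.16, SE 0.38, edgeR adjusted p = 0.00519). Without IMQ replicate 11 this log2 fold change was 2.38, still called. Of the 3 inducing cytokines tested in small intestine, edgeR called 1, with 2 at an unadjusted p under 0.05 and 2 called by DESeq2. Tnf was higher in both IMQ libraries without being called by edgeR (log2 fold change 1.91, SE 0.43, edgeR adjusted p = 0.0772), and Il1a overlapped (-0.47, SE 0.345). In the same tissue, Il17a, Il17c and Il17f had 0 to 11 counts in every library and Il1f6 none.

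Of 5 regulators of ELR-positive transcripts, Zc3h12a, which encodes an RNase that degrades chemokine mRNA (log2 fold change 2.76, SE 0.24, edgeR adjusted p = 0.00321), and Nfkbiz, an inducible NF-kappaB cofactor (1.92, SE 0.34, adjusted p = 0.0236), were called higher in skin, and the call of Nfkbiz was lost in 4 of the 6 fits that left out 1 library. EdgeR called 0 of these 5 in small intestine, with 3 at an unadjusted p under 0.05 and 0 called by DESeq2. Of 5 proteases that cut CXC ligands, Mmp8 (log2 fold change 3.49, SE 0.36) and Mmp9 (1.72, SE 0.36) were called higher in skin. In the small intestine Mmp8 was called higher (1.83, SE 0.35) and Mmp9 lower (-1.34, SE 0.23). The call was lost in 5 of 6 such fits for Mmp9 in skin, and in small intestine in 5 of 5 for Mmp8 and 3 of 5 for Mmp9.

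**Figure D5:**
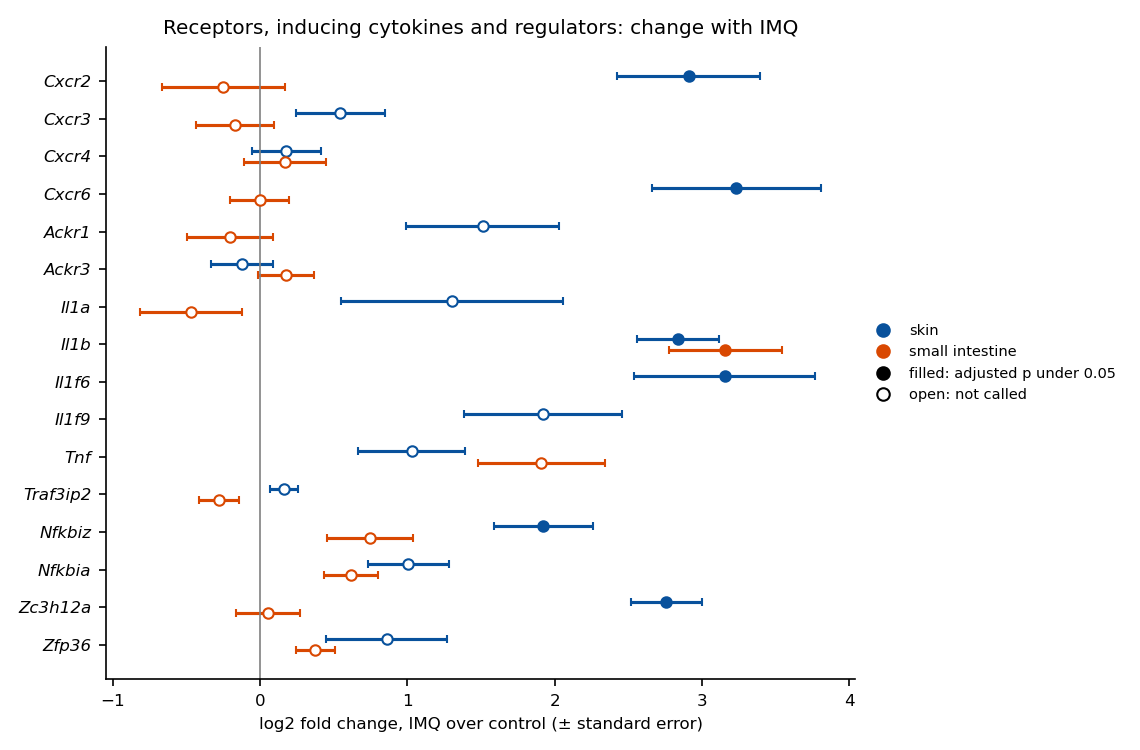
Log2 fold change of IMQ over control (bars, standard error) for receptors of CXC ligands, inducing cytokines and regulators tested in skin; skin is blue, small intestine is orange, and filled symbols passed an adjusted p of 0.05. Cxcr2 and Cxcr6 lie at 2.91 and 3.23 in skin and at -0.25 and -0.002 in small intestine, while Il1b lies near 3 in both tissues.

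Markers of cell types moved with these ligands in part. The 8 neutrophil markers summed to 10.3 to 16.2 CPM in control skin and 75.5 to 86.9 CPM in IMQ skin, and 2 of 5 tested were called higher, Csf3r (log2 fold change 3.04, SE 0.17) and Retnlg (2.0, SE 0.43). Most of the sum was Csf3r, with 417 to 591 counts in control and 3246 to 4033 in IMQ skin. Mpo, which encodes a granule enzyme of neutrophil precursors, had 57 to 264 counts in control skin and 20 to 43 in IMQ skin (-2.34, SE 0.65, edgeR adjusted p = 0.0851). Ly6g, a defining neutrophil marker, had 0 to 9 counts in every skin library, and Ngp had 0 in all control skin and 0 to 198 in IMQ skin. In the small intestine the sum was 8.66 to 8.79 CPM in controls and 34.5 to 37.4 CPM with IMQ, where Csf3r, with 145 to 207 counts in controls and 1811 and 1439 with IMQ, was the one marker called (3.21, SE 0.23). Retnlg had 196 to 235 counts in controls and 242 and 182 with IMQ (-0.07, SE 0.21), Cxcr2 had 8 to 15 counts and Ly6g 0 to 4. Monocyte and macrophage markers summed to 384 to 648 CPM in control and 976 to 1209 CPM in IMQ skin, and 4 of 8 were called higher, Adgre1 (log2 fold change 2.88, SE 0.32), Cd14 (2.14, SE 0.20), Fcgr1 (1.65, SE 0.23) and C1qa (1.40, SE 0.20). In small intestine the sum was 189 to 284 CPM in controls and 533 to 566 CPM with IMQ, and 4 of 8 were called higher, Cd68 (2.54, SE 0.20), Adgre1 (2.16, SE 0.22), C1qa (2.04, SE 0.21) and Fcgr1 (1.46, SE 0.27). Of the 8 B cell and follicle markers in skin, 4 were tested and Cd79b (log2 fold change 3.42, SE 0.43) and Cd22 (2.85, SE 0.36) were called higher, while DESeq2 called 3. Fcer2a, a receptor of IgE on follicular B cells, had 15 to 261 counts in control skin and 2 to 11 in IMQ skin (-3.83, SE 1.1, edgeR adjusted p = 0.0812). The defining B cell markers stayed near 0 there, with 0 to 14 counts of Ms4a1 and 0 to 7 of Pax5 in every skin library and 0 counts of Cr2 in all IMQ skin. In the small intestine edgeR called 0 of 8 B cell and follicle markers, with 2 at an unadjusted p under 0.05 and 2 called by DESeq2. Of 7 lymphotoxin and follicle organizers, edgeR called 0 of 6 tested in skin, with 2 at an unadjusted p under 0.05 and 2 called by DESeq2, and Madcam1 was called higher in small intestine (1.30, SE 0.26, edgeR adjusted p = 0.0465). The part of any cell type in the level of a ligand was not tested.

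T and NK cell markers summed to 22.5 to 41.2 CPM in control and 35.4 to 91.4 CPM in IMQ skin, with 0 of 8 called by edgeR, 3 at an unadjusted p under 0.05 and 3 called by DESeq2. In small intestine the sum was 71.6 to 132.4 CPM in controls and 81.8 to 89.5 CPM with IMQ, and Klrb1c was called higher (2.69, SE 0.37). The median log2 fold change of the 8 was -0.30, and Cd3e was lower in both IMQ libraries without being called (-0.69, SE 0.26, edgeR adjusted p = 0.31). Fibroblast markers, from cells known to express Cxcl12, summed to 9975 to 22710 CPM in control and 11090 to 13970 CPM in IMQ skin, with 0 of 6 called by edgeR or DESeq2 and 0 at an unadjusted p under 0.05. Endothelial markers were called higher for 2 of 5 in skin (Pecam1, 1.16, SE 0.15, and Vwf, 1.06, SE 0.21) and 1 of 5 in small intestine (Pecam1, 1.84, SE 0.14). Of 6 keratinocyte markers in skin, Krt14 was called higher (1.41, SE 0.31) and Krt15 lower (-2.26, SE 0.23). Of the hair follicle and pigment cell markers, edgeR called 0 of 3 and 0 of 5 in skin, all of which had an unadjusted p under 0.05 and were called by DESeq2.

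The genes whose pattern across the 11 libraries was most like that of each ligand were named by Pearson's r of log2(CPM + 0.1) over 16075 genes, as a description. The libraries share tissue and treatment, which set much of every pattern. Cxcl1 was most like S100a9 (r = 0.98), Cd14 and H2-M9, and Cxcl5 most like Trdv2-2 (r = 0.97), Il23r and Arpc2. Cxcl13 was most like Lcn2 (r = 0.98), Blk and Trdv2-1. Cxcl2 was most like Cstdc4 (r = 0.98), C330022C24Rik and Gm29845, and Cxcl3 most like Il24 (r = 0.97), Gm29845 and Tmem165. Among the interferon-induced ligands, Cxcl9 was most like Gbp2b (r = 0.93), Plaat3 and Syap1, and Cxcl11 most like Il15 (r = 0.98), Khnyn and Mcur1. Cxcl10 had the weakest likeness, with F830045P16Rik (r = 0.81), Tmem167b and Upf2. Cxcl12 was most like Selenow (r = 0.99), Cox4i2 and Rpl14, and Cxcl14 most like Slc25a33 (r = 0.93), Zfp689 and Ear2.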

How the data were processed

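RNA of skin and small intestine was sequenced as 100-bp paired-end reads from TruSeq Stranded mRNA libraries. Alignment to mm10 by the authors used HISAT2 2.1.0, and they quantified genes with StringTie 2.1.3b, with bcl2fastq 2.20.0 and Trimmomatic also named in the submitters' processing notes. The deposited table holds, per library, whole-number read counts that were not normalized and FPKM that the authors scaled by length and library size. A TPM column from the authors was left aside. The tool that gave the counts, its use of strand and its handling of reads matching several genes are not given in the sources used here. Libraries were grouped by the sample annotation. The 11 libraries held 44995414 to 58526384 counts, so counting error is small for ligands with high counts and limits those with fewer than 10.

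In R 4.3.3, genes without a zero count in the libraries of a fit were normalized by relative log expression and tested with edgeR 4.0.16 (glmQLFit, glmQLFTest), with Benjamini-Hochberg adjustment over all genes and calls at adjusted p under 0.05. The standard error is the log2 fold change divided by the square root of F. The share of all genes at an unadjusted p under 0.05 was not computed, so counts of genes at that level have no background here. Each tissue was fitted alone, and the difference between tissues and the contrast of controls came from one model of 11 libraries. The script was tested on simulated data. The tests were repeated with DESeq2 1.42.0, limma-voom (limma 3.58.1), TMM or upper-quartile scaling, filterByExpr or no filter, limma on log2(FPKM + 0.01) and log2(FPKM + 1), a minimum change of 1 on the log2 scale, all libraries in one fit, and with 1 library omitted at a time. For ligands that failed the filter, DESeq2, TMM, limma-voom and leaving out each library were run without a filter, alternatives chosen after seeing the data. Replicates of a group differed by 34 to 231 times sampling noise (chi-square per degree of freedom, 10 pairs), so none was a duplicate.

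The members and gene lists were chosen with earlier results of these data known. All 10 ligands, all CXC receptors and other CXC ligands are named. Of every other list, up to 4 called genes with the largest change are named. The uncalled or untested genes named besides (Ifng, Ly6g, Ngp, Mpo, Fcer2a, Cd3e, Ms4a1, Pax5, Cr2, Art3, Il17a, Il17c, Il17f, Il1f9, Tnf, Il1a) were added after their values were seen. The 3 genes most like each ligand were taken among genes with a mean FPKM of at least 1 in a group. Positions and promoters come from RefSeq (GRCm38.p6), overlaps and transcripts from GENCODE, matched by symbol with the Entrez Gene identifiers compared. Il36a and Il36g are listed as Il1f6 and Il1f9. The values of 1 gene of the interferon signaling list are not reported here.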

Additional observations from a re-analysis of the deposited data

Results flagged for a closer look

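The change with IMQ differed between skin and small intestine by a test of the difference itself (edgeR, one model of all 11 libraries) for 4 of the ligands and for 9 genes of the other lists. On the log2 scale, as the change in small intestine minus that in skin, the difference was -6.47 for Cxcl5, -5.16 for Cxcl13, -2.21 for Cxcl1 and 2.49 for Cxcl14. It was -3.22 for Cxcr6, the receptor of Cxcl16. It was -1.88 for Pf4 (SE 0.43, edgeR adjusted p = 0.0474), which had 63, 75 and 77 counts in control and 38 and 20 in IMQ small intestine. Among regulators and proteases it was -2.69 for Zc3h12a (edgeR adjusted p = 0.00538) and -3.05 for Mmp9 (0.0114). Among cell type markers it was -4.25 for Cd22 (edgeR adjusted p = 0.00306), -2.07 for Retnlg (0.0457), 1.97 for Cd68 (0.00667), 2.92 for Klrb1c (0.0217) and 2.39 for Krt15 (0.0127). Keratinocyte markers summed to at most 3.76 CPM in small intestine, where the log2 fold change of Krt15 was 0.12 (SE 0.31), compared with -2.26 in skin. For these markers, Zc3h12a and Mmp9, the fits of this difference that left out 1 library were not examined. Il17a was called as well in the fit without a filter (edgeR adjusted p = 0.0183), with no fold given because its skin controls were all at 0. Without skin control replicate 2 and without skin IMQ replicate 6 the difference for Cxcr6 was -3.83 and -2.59. The calls of Cxcr6 and Pf4 were lost in 8 and 9 of the 11 fits that left out 1 library.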

How the results depend on the processing

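With DESeq2 the genes called numbered 3030 rather than 1382 in skin, 1206 rather than 588 in small intestine and 1281 rather than 462 for the difference between tissues. On log2(FPKM + 0.01) they numbered 912, 291 and 301, and on log2(FPKM + 1) 852 in skin and 344 in small intestine. Without a filter the difference between tissues gave 301, and a minimum change of 1 on the log2 scale left 6529 of the 10321 genes called between control tissues. The ligands called numbered 2 rather than 4 in skin on log2(FPKM + 1). In small intestine they numbered 2 rather than 1 with DESeq2, and 0 with upper-quartile normalization, filterByExpr, no filter and either FPKM scale. Leaving out 1 library gave 258 to 2521 genes and 3 ligands in skin, 294 to 801 genes and 0 to 1 ligands in small intestine, 144 to 1072 genes and 1 to 4 ligands for the difference between tissues, and 9267 to 10421 genes and 5 to 6 ligands between control tissues. In skin the highest of these came without control replicate 2.

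Cxcl1 in skin was called in every fit run. The call of Cxcl14 in skin was lost with TMM (adjusted p = 0.0507), upper-quartile normalization (0.0518), no filter (0.062) and both FPKM scales. Between control tissues, upper-quartile normalization called 6066 genes higher and 4408 lower in skin, and log2(FPKM + 1) 8165 and 3117. Directions changed only for ligands that were not called. In small intestine these were Cxcl2 (-0.0090 to 0.89 over the fits without 1 library), Cxcl3 (-4.10 to 2.1), Cxcl10 (-0.27 to 0.14) and Cxcl11 (-1.06 to 0.27). For the difference between tissues they were Cxcl9 (-0.97 to 0.077) and Cxcl11 (-0.18 to 1.12). Between control tissues they were Cxcl2 (-0.68 by limma-voom, -1.12 to 1.26 without 1 library), Cxcl3 (-0.078 by limma-voom, -0.87 to 1.06, with -0.35 without replicate 8), Cxcl10 (-0.11 to 0.51) and Cxcl13 (0.047 with TMM, 0.11 with upper-quartile normalization, 0.31 by limma-voom, 0.79 and 0.50 on the FPKM scales, -0.40 to 1.02 without 1 library). The cause was not tested. Of the other values for single genes, 1033 kept their direction and side of the threshold, 177 lost and 11 gained a call. No paired analysis was possible because the replicate numbers 1 to 11 are not shared between groups. Among the other lists, the calls in skin of Krt14, Retnlg and Vwf, and in small intestine those of Madcam1 and Fcgr1, were lost in at least 4 of the fits without 1 library. Ligands with fewer than 10 counts, as Cxcl2 and Cxcl3 in small intestine, are limited by depth.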

Other observations

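Within the IMQ skin libraries, the ligands differed in how far the libraries spread. The highest normalized count was 1.16 times the lowest for Cxcl1 and 1.56 times for Cxcl10, compared with 3.38 times for Cxcl13, 4.08 times for Cxcl5, 4.36 times for Cxcl3 and 4.67 times for Cxcl2. The level of Cxcl1 was therefore the most even of the 10 ligands in IMQ skin, whereas its ELR-positive neighbours on chromosome 5 spread the most.

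In the small intestine, control replicate 9 had the highest counts of Cxcl5, Cxcl9, Cxcl10, Cxcl11 and Cxcl13 among the controls, with 71, 1283, 154, 181 and 359 counts, and also the most Cxcr5, Ms4a1 and Cr2, with 109, 389 and 308 counts. Cxcl12 and Cxcl14 did not follow this order and were highest in control replicate 7, with 2965 and 1427 counts.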
